A study of Mus musculus with 16 samples.

Results

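The mouse mitochondrial genome carries its own genes, and the deposited expression tables list 37 of them, each under a symbol that begins with mt-. All 37 were taken, out of 55471 gene lines at day 7 and 55468 at day 5. By symbol, 13 encode proteins, 2 encode ribosomal RNAs (mt-Rnr1 and mt-Rnr2) and 22 encode transfer RNAs. Primary neural stem cells (NSCs) had been prepared from the cortices of C57BL/6 embryos (E15-16, dissected from pooled brains of both sexes), grown in medium with FGF2 and moved to differentiation medium 5 days after seeding. They carried a lentivirus with a scramble shRNA (shRNA-CON) or with an shRNA against the lncRNA RUS (shRNA-RUS), and were collected at Day 5 or Day 7. Each of these 4 groups has 4 poly(A)-enriched RNA libraries, 16 in all. The labels speak of 4 experiments per condition and do not say whether these shared a cell preparation, so the p-values below measure only the spread between these samples. All values are TPM, a share of the transcripts in a library that is corrected for gene length and carries no read depth.

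Mitochondrial DNA is transcribed from both strands into long RNAs that span most of the genome. The transfer RNAs lie between the other genes like punctuation, and cutting them out releases the mRNAs and rRNAs. A mitochondrial poly(A) polymerase then adds a short tail to most mRNAs, while enzymes and RNA-binding proteins made from nuclear genes set how long each RNA lasts. The proteins encoded are core subunits of respiratory complexes I, III and IV and of the ATP synthase (complex V), and complex II has none.

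The 3′ ends of 5 mRNAs are shown because poly(A) selection relies on the tail that is joined there. The letters are from the transcripts of GENCODE release M21 on GRCm38, with the stop codon, or what the gene holds of it, in capitals.
mt-Nd2, chrM:4922-4951: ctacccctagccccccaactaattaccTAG
mt-Atp8, chrM:7940-7969: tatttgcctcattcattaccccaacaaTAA
mt-Co3, chrM:9361-9390: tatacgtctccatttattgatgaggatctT
mt-Nd4, chrM:11515-11544: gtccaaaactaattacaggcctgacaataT
mt-Cytb, chrM:15259-15288: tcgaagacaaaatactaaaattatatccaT
All 5 are on the plus strand. The first 2 genes hold a whole stop codon. The last 3 end in a lone T after their last whole codon, and the stop codon is there only once A bases have been added.

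How the TPM of these genes can be read turned on a second set of sequences, since nuclear DNA holds pieces of the mitochondrial genome. A stretch of chromosome 1 (chr1:24611535-24616197, minus strand, GRCm38, 4663 bases) carries 7 annotated pseudogenes that match the mitochondrial genome from chrM:6390 to chrM:11042. Gm28661 matched mt-Co2, Gm10925 matched mt-Atp6, Gm28437 matched mt-Co3, Gm10222 matched mt-Nd4l and Gm28439 matched mt-Nd4, each at 100% identity over 681, 678, 783, 294 and 876 aligned bases. Gm29216 matched the end of mt-Co1 at 99.793% over 483 bases, and Gm28438 matched mt-Nd3 at 99.71% over 345. The single base by which each of these 2 differs within the aligned stretch is shown in capitals, since a read inside that stretch tells gene from copy only where it crosses it.
mt-Co1: ggaAttgttttatcca
Gm29216: ggaTttgttttatcca
mt-Nd3: atTaacctgtacact
Gm28438: atCaacctgtacact
With positions counted from 1 at the 5′ end of the mitochondrial gene, these are A1066T and T3C (the mitochondrial base first). Over the rest of the aligned bases the letters of gene and copy are equal. Another 4 pseudogenes on chromosomes 2 and 13 matched at 95.178% to 97.605%, and their summed TPM was at most 0.00103% of a library.

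In the deposited TPM, signal was listed for each of these genes and for most of the copies, and how much of a copy's TPM came from mitochondrial RNA cannot be told from TPM. Gm28661 stood at 14403 to 18372 TPM and Gm28437 at 11291 to 16479 TPM over the 16 libraries, against 137 to 588 TPM for mt-Co2 and 155 to 654 TPM for mt-Co3. Gm10925 stood at 10863 to 18495 TPM, against 254 to 766 TPM for mt-Atp6. As a percent of the length-weighted sum of gene and copy, the mitochondrial gene held 0.826% to 3.94% for mt-Co2, 1.92% to 4.76% for mt-Atp6 and 1.15% to 4.21% for mt-Co3. mt-Nd3 held 8.77% to 29.0% and mt-Co1 69.5% to 86.7%. For mt-Nd4l this percent differed from library to library, from 45.5% to 100% of the sum. mt-Nd4 held all of its sum, with Gm28439 at 0.38 TPM in 1 library and listed at 0 in the others, although the copy matches it base for base. Results are therefore given in both forms: for the gene's own TPM (called as deposited), and with the TPM of each copy added to its gene after weighting by length, a choice made after these values were seen. The shares of the mRNA pool are given with copies only. mt-Atp8 has no annotated copy and has 1 value.

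**Figure D1:**
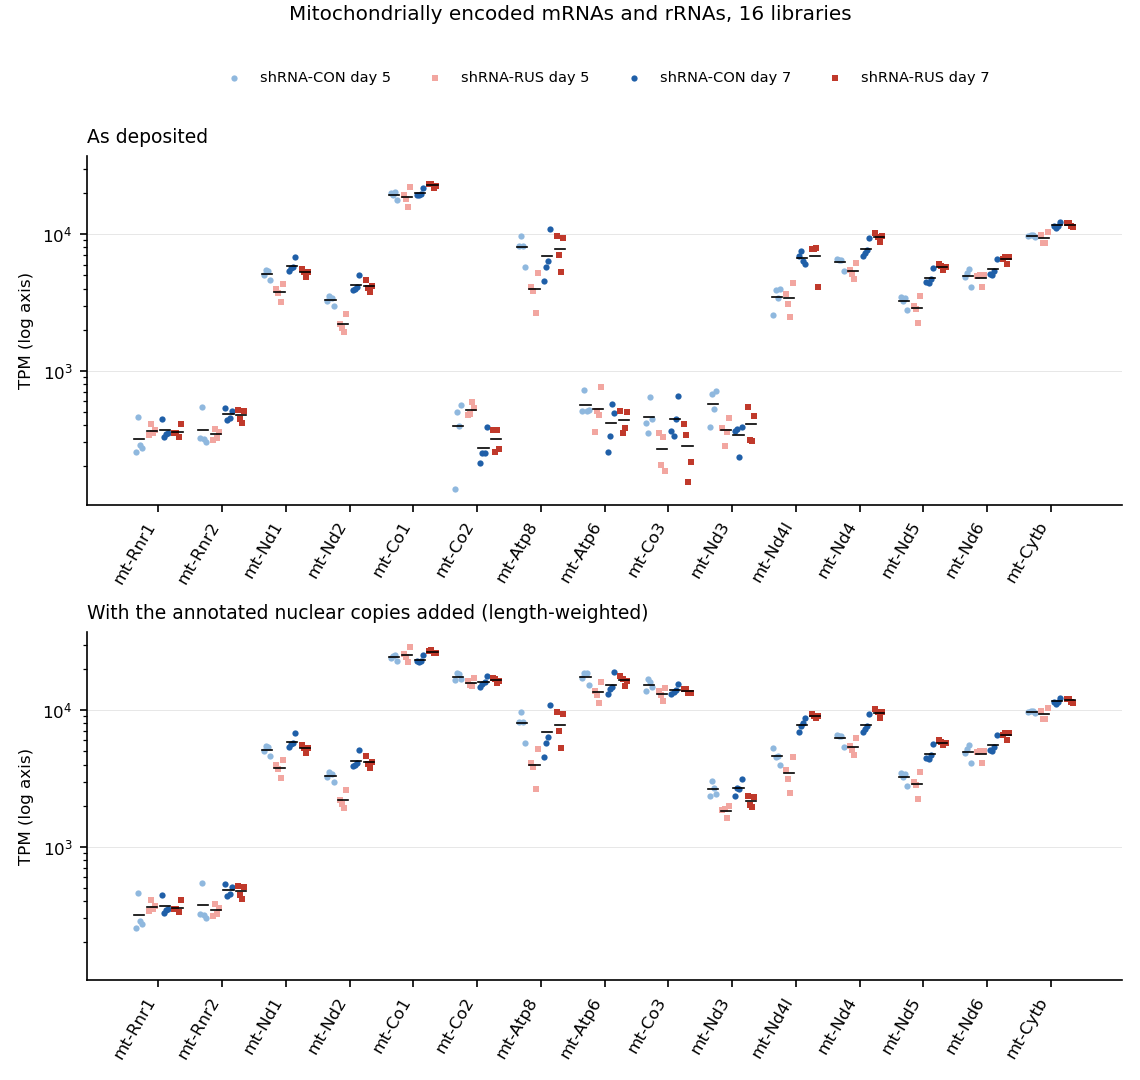
TPM (log axis) of the 2 rRNA genes and 13 mRNA genes in genome order, 1 point per library and a bar at the mean of each group of 4, as deposited (top) and with nuclear copies added (bottom). mt-Co2, mt-Atp6, mt-Co3 and mt-Nd3 lie between 137 and 766 TPM in the top panel and at or above 1621 TPM in the bottom panel.

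The tables also carry 1 base mean per gene and day, the authors' mean over 8 libraries of counts divided by size factors, and it gave another picture of the same genes. For mt-Co2, mt-Atp8, mt-Atp6, mt-Co3, mt-Nd3 and mt-Nd4l, the authors' base mean was under 1 on both days, from 0 to 0.704. For the other 9 mRNA and rRNA genes it was at least 1008. All 6 genes lie within the stretch that matches chromosome 1. The base means of their 5 copies on chromosome 1 were at most 10.9. mt-Nd6, the only one of the 13 mRNAs on the minus strand (chrM:13552-14070), stood at 4847 mean TPM on day 5, about as high as mt-Nd1 at 4465. Its base mean per kb was 3456, against 109215 for mt-Nd1. It overlaps the end of mt-Nd5 (chrM:11742-13565) on the other strand, and neither the strand setting nor the handling of reads with several matches is given in the sources used here, so the level of mt-Nd6 is uncertain.

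**Figure D2:**
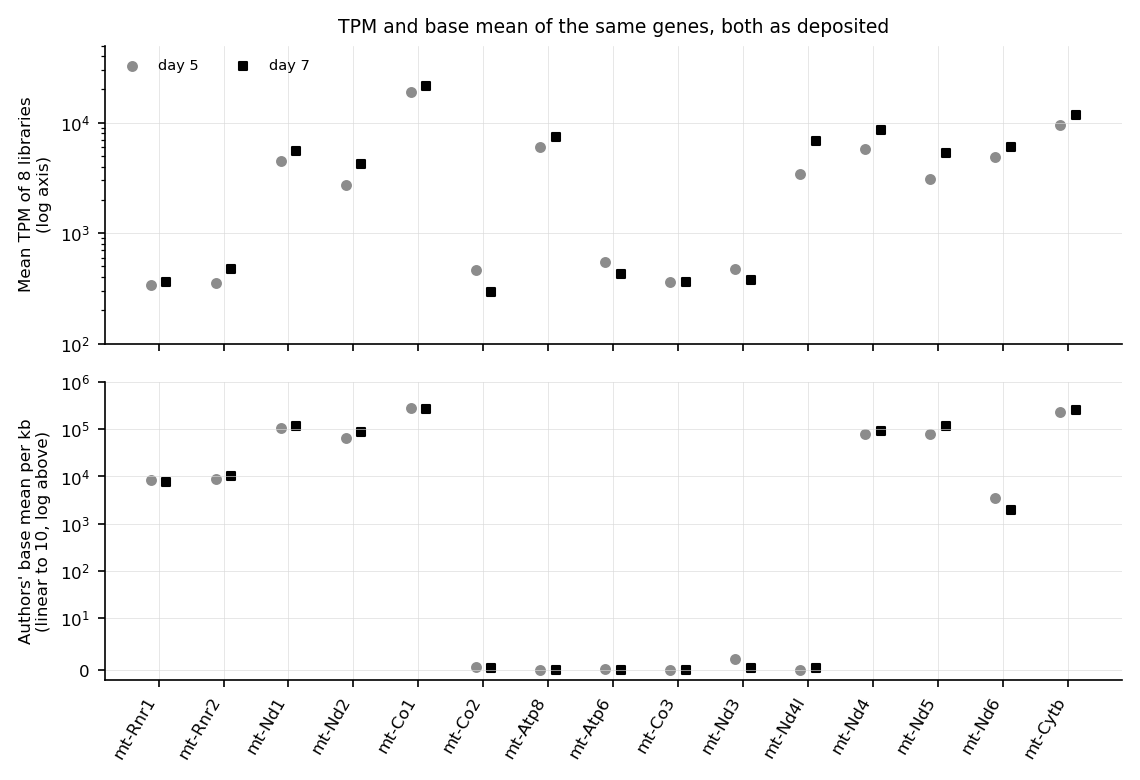
Mean TPM of the 8 libraries of a day (top, log axis) and the authors' base mean per kb of gene (bottom, linear to 10 and log above) for the same 15 genes, days 5 and 7. From mt-Co2 to mt-Nd4l, 6 neighbouring genes are at or near 0 in the base mean while their TPM are not.

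mt- mRNAs were among the most abundant RNAs of every group. mt-Co1, a core subunit of complex IV, held the highest mean TPM of all lines in both shRNA-CON groups and in shRNA-RUS at day 7, and the second highest in shRNA-RUS at day 5, after its own copy Gm29216. Of the 20 highest lines, between 4 and 8 were mt- genes and 4 were copies from chromosome 1. As deposited, the 13 mRNAs summed to 6.54% ± 0.45 of all TPM in shRNA-CON at day 5, 5.62% ± 0.78 in shRNA-RUS at day 5, 7.49% ± 0.77 in shRNA-CON at day 7 and 8.20% ± 0.47 in shRNA-RUS at day 7 (SD, n = 4 each). The copies on chromosome 1 added 5.31% to 7.33% per library. The ranges of both shRNAs overlapped on each day: shRNA-CON at 5.92% to 6.92% and shRNA-RUS at 4.73% to 6.58% on day 5, and 6.91% to 8.63% against 7.65% to 8.76% on day 7. In each group 1 library was the highest for most mRNAs once copies were added: this was replicate 4 of shRNA-CON at day 7 (13 of 13 mRNAs, 11 as deposited), replicate 4 of shRNA-RUS at day 5 (12, and 10 as deposited) and replicate 1 of shRNA-RUS at day 7 (11 in both forms). In shRNA-CON at day 5, replicate 2 was the highest for 8 with copies and 5 as deposited.

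**Figure D3:**
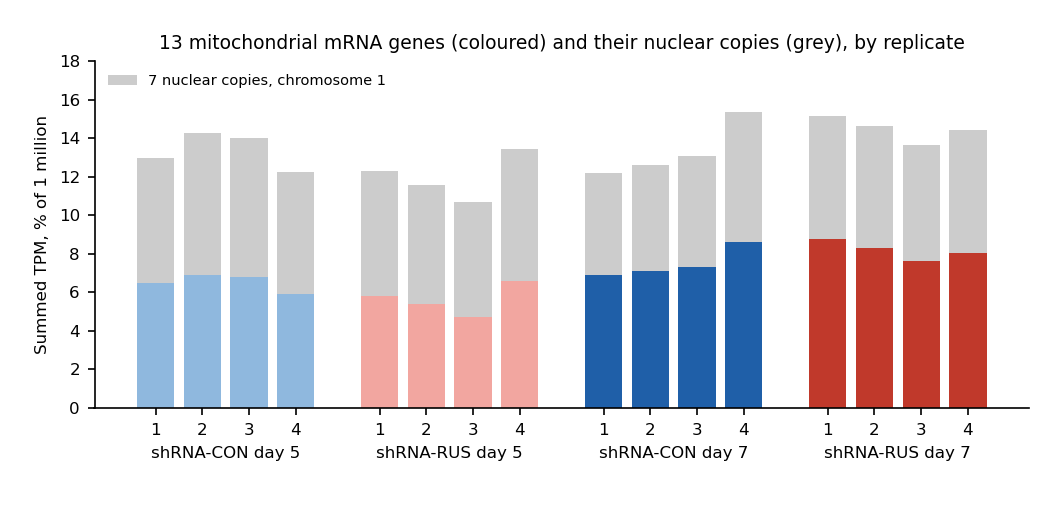
Summed TPM per library as a percent of all TPM, with the 13 mitochondrial mRNA genes in colour and the 7 nuclear copies on chromosome 1 stacked in grey, by replicate. The coloured bars run from 4.73% to 8.76%, and both shRNAs overlap on each day.

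With copies added, the levels per length fell into the same upper order in all 4 groups: mt-Co1 first, then mt-Co2, mt-Atp6 and mt-Co3, then mt-Cytb, the only complex III subunit of this genome. In shRNA-CON at day 7, mt-Co1 stood at 23288 ± 1267 TPM (SD, n = 4), and its lowest library lay above the highest of mt-Co2 (16070 ± 1282). mt-Co2, mt-Atp6 (15352 ± 2471) and mt-Co3 (14084 ± 1038) overlapped their neighbours in that order. mt-Cytb followed at 11604 ± 540, below the range of mt-Co3. The genes of complex I and mt-Atp8 came next, from mt-Nd4l at 7837 ± 792 to mt-Nd2 at 4264 ± 546, each overlapping the next, and mt-Nd3 stood alone at 2713 ± 306. The rRNAs came last, at 480 ± 46 TPM for mt-Rnr2 and 368 ± 54 for mt-Rnr1. As deposited the order was different: mt-Co2, mt-Atp6, mt-Co3 and mt-Nd3 lay below mt-Nd2 in every library.

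The targeted lncRNA, listed as Gm20754, was too low in these tables to check the groups. It stood at 0.24, 0.11, 0.18 and 0.16 TPM in shRNA-CON and at 0.05, 0, 0.12 and 0.32 TPM in shRNA-RUS on day 5, and at 0.7, 0.72, 0.26 and 0.54 TPM against 0.54, 0.38, 0 and 0.04 TPM on day 7. Its log2 change was -0.40 on day 5 (limma adjusted p = 0.519) and -1.28 on day 7 (limma adjusted p = 0.114), and the groups overlapped. Neural stem cell and radial glia markers were present throughout, with a summed level over 7 markers of 7259 to 17935 TPM, most of it Vim and Fabp7. Of the 7, 3 were higher and 2 lower in shRNA-RUS on day 5, and 2 higher and 3 lower on day 7. For these and the next marker counts, 14.8% of all genes were called higher and 17.9% lower on day 5, and 23.4% and 25.8% on day 7. Nes stood at 56.0 ± 2.6 TPM in shRNA-CON and 27.5 ± 3.2 TPM in shRNA-RUS on day 5, and at 111 ± 6.0 against 48.6 ± 5.2 TPM on day 7 (SD, n = 4). Vim went the other way, at 8918 ± 496 against 11741 ± 780 TPM on day 5 and 5121 ± 208 against 5781 ± 304 TPM on day 7. Fabp7 stood at 3510 ± 316 against 4497 ± 313 TPM on day 5 and 1248 ± 46 against 1223 ± 90 TPM on day 7. Of 6 neuronal markers, 2 were higher and 2 lower on each day, and of 4 astrocyte markers, 1 was higher and 0 lower on day 5, and 2 higher and 1 lower on day 7. Of 5 mural and meningeal markers tested, 1 was higher on day 5 and 2 on day 7, with 0 lower. Of 3 endothelial markers tested, 1 was lower and 0 higher on each day. Markers of other cells were there too. Summed over 8 microglial markers, the levels were 116 to 129 TPM in shRNA-CON and 101 to 124 TPM in shRNA-RUS on day 5, with 2 of 8 lower and 0 higher, and on day 7 292 to 321 TPM in shRNA-CON against 137 to 167 TPM in shRNA-RUS, where 8 of 8 were lower. The 6 markers of the oligodendrocyte lineage summed to 396 to 444 TPM in shRNA-CON and 258 to 284 TPM in shRNA-RUS on day 7, with 5 of 6 lower, and to 236 to 311 TPM against 151 to 215 TPM on day 5, with 3 of 6 lower. No marker of the endothelial, mural and meningeal, microglial or oligodendrocyte lists was at 0 in every library. In bulk RNA of this kind, fewer cells of a type and less RNA per cell cannot be told apart, and the part of cell makeup in the values below was not tested.

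The first question was whether the mitochondrial RNAs differed between shRNA-RUS and shRNA-CON at day 5. mt-Nd2 (a complex I subunit) and mt-Atp8 (a small subunit of the ATP synthase) were lower in shRNA-RUS, and 0 of the 15 mRNA and rRNA genes were higher. limma was run on log2(TPM divided by a library factor, plus 0.1) for all 22581 genes averaging 0.1 TPM or more, with calls at an adjusted p under 0.05. Over all those genes, 14.8% were called higher and 17.9% lower (32.7% in all), so 2 of 15 lower is near the background. Unadjusted, 4 of the 13 mRNAs had a limma p under 0.05, which at least 32.7% of all genes had. The median log2 change of the 13 mRNAs was -0.0075 as deposited and -0.059 with copies added, against -0.061 over all genes tested.

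mt-Nd2 stood at 3269, 3515, 3410 and 2967 TPM in shRNA-CON and at 2214, 2068, 1914 and 2623 TPM in shRNA-RUS on day 5. Every knockdown library lay below every control library, and the log2 change was -0.43 ± 0.094 (SE, limma adjusted p = 0.00743). With the replicate number as a block, mt-Nd2 missed the threshold (limma adjusted p = 0.0521). mt-Atp8 stood at 8185, 9769, 8243 and 5776 TPM against 4132, 3860, 2630 and 5208 TPM. Again the groups did not overlap, with a log2 change of -0.87 ± 0.21 (limma adjusted p = 0.0112). It is the shortest of the mRNA genes at 204 bases (chrM:7766-7969), overlaps mt-Atp6 (chrM:7927-8607) and is read from the same mRNA, and its spread between replicates was wide. Its base mean was 0 on both days, and it lies in the stretch that matches chromosome 1 with no annotated copy to add. The level of mt-Atp8 is therefore uncertain.

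mt-Nd1, a complex I subunit next to mt-Nd2 in the genome, stood at 5047, 5506, 5365 and 4598 TPM in shRNA-CON and at 3998, 3689, 3207 and 4313 TPM in shRNA-RUS. The groups did not overlap, but the log2 change of -0.28 ± 0.10 missed the threshold (limma adjusted p = 0.0616). Without replicate 4 of shRNA-RUS it was called lower (log2 change -0.31, limma adjusted p = 0.0432). Over all genes tested at day 5, 18.7% had every knockdown library below every control library and 14.1% had every one above. mt-Co3 (log2 change -0.66, limma adjusted p = 0.0805) and mt-Nd3 (-0.46, limma adjusted p = 0.121) overlapped between groups as deposited, and each was called once 1 library was left out: mt-Co3 at limma adjusted p = 0.0468 without replicate 1 of shRNA-RUS, and mt-Nd3 at limma adjusted p = 0.0121 without replicate 1 of shRNA-CON.

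Adding the copies changed the day 5 picture for 2 of these. mt-Nd3 then stood at 2373, 3035, 2716 and 2436 TPM in shRNA-CON and at 1848, 1896, 1621 and 1975 TPM in shRNA-RUS. It was called lower, at -0.36 ± 0.11 (limma adjusted p = 0.0265), which made 3 of 15 lower and 0 higher. mt-Co3 then stood at 13790 to 16808 TPM against 11606 to 14515 TPM and its fold change shrank to -0.056 ± 0.11 (limma adjusted p = 0.737). The log2 change of mt-Co2 went from 0.73 ± 0.40 (limma adjusted p = 0.196) to 0.011 ± 0.094 (limma adjusted p = 0.945), and that of mt-Co1 from 0.11 ± 0.11 to 0.21 ± 0.097 (limma adjusted p = 0.485 and 0.130). mt-Nd4, mt-Nd5, mt-Nd6 and mt-Cytb had fold changes between -0.059 and 0.11 either way.

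The scale between libraries mattered at this day. Library factors were 1.02 to 1.11 in shRNA-CON and 0.92 to 1.01 in shRNA-RUS. Without library factors, the median log2 change of all genes was -0.21 and 5 of the 15 genes were called lower (mt-Nd1, mt-Nd2, mt-Atp8, mt-Co3 and mt-Nd3), with 0 higher. Over all genes, 26.7% were then lower and 7.83% higher.

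**Figure D4:**
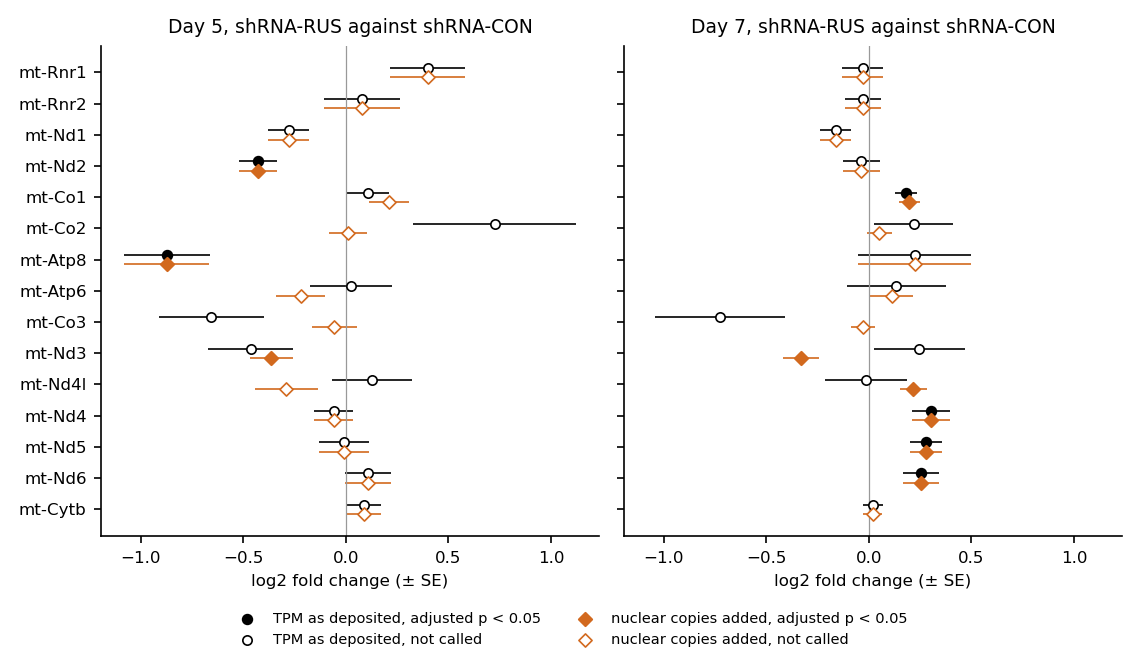
log2 change of shRNA-RUS against shRNA-CON with its SE from limma for the 15 genes, on TPM as deposited (circles) and with nuclear copies added (diamonds), filled where the adjusted p is under 0.05. At day 5 the called genes lie to the left of 0; at day 7 all but mt-Nd3 with its copy lie to the right.

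At day 7 the called genes were higher in shRNA-RUS. They were mt-Co1 and 3 complex I subunits, mt-Nd4, mt-Nd5 and mt-Nd6, while 0 of 15 were lower as deposited. Over all 24606 genes tested, 23.4% were called higher and 25.8% lower (49.2% in all), so 4 of 15 higher is near the background and 0 lower is below it. The median log2 change of the 13 mRNAs was 0.18 as deposited and 0.11 with copies added, against -0.029 over all genes. Unadjusted, 5 of 13 had a limma p under 0.05, which at least 49.2% of all genes had.

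mt-Co1 stood at 19411, 19460, 19619 and 21646 TPM in shRNA-CON and at 23394, 23297, 21691 and 22552 TPM in shRNA-RUS. The groups touched without overlapping as deposited and overlapped after library factors, and the log2 change was 0.18 ± 0.052 (limma adjusted p = 0.0169). mt-Nd5 stood at 4451, 4373, 4663 and 5628 TPM against 6007, 5851, 5515 and 5755 TPM, a log2 change of 0.28 ± 0.078 (limma adjusted p = 0.0147). mt-Nd4 stood at 6873, 7282, 7638 and 9320 TPM against 10128, 9616, 8722 and 9753 TPM, a log2 change of 0.30 ± 0.092 (limma adjusted p = 0.0216). In both genes replicate 4 of shRNA-CON reached into the range of the knockdown, and the other 3 control libraries lay below it.

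mt-Nd6, of uncertain level, stood at 5133, 5026, 5361 and 6604 TPM in shRNA-CON and at 6614, 6842, 6032 and 6814 TPM in shRNA-RUS on day 7. The log2 change was 0.25 ± 0.087 (limma adjusted p = 0.0365). These 4 calls differed in how far they rested on single libraries. mt-Nd5 was called with any 1 of the 8 libraries left out. mt-Co1 lost its call without replicate 2 of shRNA-CON or replicate 1 of shRNA-RUS, with limma adjusted p up to 0.0548. mt-Nd4 lost it without replicate 1, 2 or 3 of shRNA-CON or replicate 1 of shRNA-RUS, with limma adjusted p up to 0.0604. mt-Nd6 lost it in 6 of the 8 cases (replicates 1, 2 and 3 of shRNA-CON and 1, 2 and 4 of shRNA-RUS), with limma adjusted p up to 0.0985. Without replicate 4 of shRNA-CON the fold changes of mt-Nd4 and mt-Nd6 were 0.39 and 0.34. Scaled to the 75th percentile, 0 of the 15 genes were called on day 7 (limma adjusted p = 0.0613 for mt-Nd5).

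With copies added, 2 more genes were called on day 7. mt-Nd4l stood at 6874, 7641, 8069 and 8766 TPM in shRNA-CON and at 9431, 9121, 8821 and 9010 TPM in shRNA-RUS, a log2 change of 0.22 ± 0.068 (limma adjusted p = 0.0241). As deposited its fold change was -0.013 ± 0.20 (limma adjusted p = 0.966). Replicate 4 of shRNA-RUS carried that difference: it listed 4101 TPM for mt-Nd4l against 7732 to 7867 TPM in the other 3, and 4959 TPM for the copy Gm10222 against 964 to 1716 TPM. Without that library the deposited fold change was 0.22 (limma adjusted p = 0.0284). mt-Nd3 stood at 2369, 2700, 2669 and 3114 TPM against 2352, 2016, 1956 and 2314 TPM. With copies it was lower, at -0.33 ± 0.089 (limma adjusted p = 0.0120), and no libraries overlapped. As deposited its fold change was 0.25 ± 0.22 (limma adjusted p = 0.396). Over all genes tested on day 7, 24.7% had every knockdown library below every control library and 22.3% had every one above.

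mt-Nd1 stood at 5344 to 6773 TPM in shRNA-CON and 4848 to 5578 TPM in shRNA-RUS on day 7, with a log2 change of -0.16 ± 0.076 (limma adjusted p = 0.110). mt-Nd2 was at -0.036 ± 0.092 (limma adjusted p = 0.781) and mt-Cytb at 0.018 ± 0.049 (limma adjusted p = 0.789). mt-Atp8 was at 0.22 ± 0.27 (limma adjusted p = 0.539), with 4524 to 10904 TPM in shRNA-CON and 5304 to 9618 TPM in shRNA-RUS. mt-Co3 was at -0.72 ± 0.32 as deposited (limma adjusted p = 0.0880), called lower without replicate 1 of shRNA-RUS (limma adjusted p = 0.0308), and at -0.029 ± 0.059 with its copy (limma adjusted p = 0.724).

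Whether the knockdown acted differently on the 2 days was tested as the difference of its effects in 1 fit of 16 libraries and 23789 genes. mt-Atp8, whose level is uncertain, alone was called, with 1.08 ± 0.38 on the log2 scale (limma adjusted p = 0.0412), day 7 minus day 5. Over all genes, 15.2% were called higher and 14.6% lower in this contrast (29.8% in all), so 1 of 15 is below the background. That call was lost when any of 12 of the 16 libraries was left out, with limma adjusted p up to 0.0874. It was kept without replicate 4 of shRNA-CON or of shRNA-RUS on day 5, replicate 4 of shRNA-CON on day 7 or replicate 3 of shRNA-RUS on day 7. mt-Nd2 was at 0.38 ± 0.14 (limma adjusted p = 0.0529) and mt-Nd4 at 0.35 ± 0.14 (limma adjusted p = 0.0733). mt-Nd2 was called without replicate 4 of shRNA-CON on either day, replicate 4 of shRNA-RUS on day 5 or replicate 3 of shRNA-RUS on day 7, with limma adjusted p down to 0.0115, and mt-Nd4 without the first 3 of these, down to 0.0136. mt-Nd3 was called without replicate 1 of shRNA-CON on day 5 (limma adjusted p = 0.0431). With copies added, mt-Nd4l was also called, at 0.50 ± 0.18 (limma adjusted p = 0.0499).

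The course from day 5 to day 7 was compared within each shRNA. The days come from separate tables, so day and anything handled with it cannot be told apart, and both comparisons use the same fit. In shRNA-CON, mt-Nd5 and mt-Nd4l were higher at day 7 as deposited, and mt-Nd3 and mt-Atp6 lower. Over all genes, 26.9% were called higher and 21.6% lower (48.5% in all), and 2 of 15 in each direction is below both.

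mt-Nd5 went from 3467, 3228, 3429 and 2780 TPM to 4451, 4373, 4663 and 5628 TPM in shRNA-CON, a log2 change of 0.41 ± 0.11 (limma adjusted p = 0.00523) with no overlap. Over all genes, every library of day 7 lay above every library of day 5 for 26.1% and below for 20.8% in shRNA-CON. mt-Nd4l went from 2550, 3886, 3408 and 3985 TPM to 6874, 7510, 6381 and 6064 TPM, at 0.82 ± 0.21 as deposited (limma adjusted p = 0.00476) and 0.61 ± 0.13 with its copy (limma adjusted p = 0.000842). Both calls held in every one of the 28 alternatives tried. The 2 lower calls did not have that footing. mt-Nd3 at -0.90 ± 0.24 (limma adjusted p = 0.00502) became -0.11 ± 0.10 with its copy (limma adjusted p = 0.403). mt-Atp6 at -0.66 ± 0.24 (limma adjusted p = 0.0352) was -0.35 ± 0.12 with its copy (limma adjusted p = 0.0213), and as deposited it lost its call without replicate 2 or 4 of shRNA-CON on day 5 or replicate 1 or 2 of shRNA-CON on day 7, with limma adjusted p up to 0.128.

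With copies added, 4 genes from the middle of the genome were lower at day 7 in shRNA-CON: mt-Co1 (-0.22 ± 0.071), mt-Co2 (-0.29 ± 0.076), mt-Atp6 and mt-Co3 (-0.27 ± 0.088), with limma adjusted p from 0.00509 to 0.0213. This is 4 of 15, near the 21.6% of all genes called lower, and it rested on the library factors: with copies added and no library factors, an alternative chosen after seeing the data, the same 4 genes were at -0.20 to -0.070 and none was called by limma (adjusted p from 0.0840 to 0.377). For mt-Co2 as deposited, -0.54 ± 0.34 (limma adjusted p = 0.214), replicate 1 of shRNA-CON on day 5 was the lowest at 137 TPM against 393 to 560 TPM, and without it the gene was called lower at -1.02 (limma adjusted p = 0.000518). mt-Atp8 was called lower only without replicate 4 of shRNA-CON on day 7 (-0.67, limma adjusted p = 0.0332).

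In shRNA-RUS, 5 of 15 genes were higher at day 7 as deposited (mt-Nd2, mt-Nd4, mt-Nd5, mt-Nd4l and mt-Atp8) and 1 was lower (mt-Co2). Over all genes, 35.0% were called higher and 25.8% lower (60.8% in all), so 5 higher is near the background and 1 lower is below it. That split depended on the scale: without library factors, after quantile normalization or rescaled without mt- genes, 10 of 15 were called higher and 0 lower, while over all genes those scales called 49.6%, 29.96% and 51.3% higher and 14.9%, 28.5% and 13.8% lower. mt-Nd2 went from the 1914 to 2623 TPM given above to 4609, 4059, 3797 and 4144 TPM, a log2 change of 0.60 ± 0.099 (limma adjusted p = 7.42e-05). mt-Nd5 went from 2997, 2849, 2237 and 3526 TPM to 5515 to 6007 TPM, at 0.69 ± 0.11 (limma adjusted p = 4.87e-05). mt-Nd4 went from 5498, 5130, 4665 and 6205 TPM to 8722 to 10128 TPM, at 0.51 ± 0.099 (limma adjusted p = 0.000311). For all 3 genes the days did not overlap, which over all genes held for 30% with day 7 higher and 22.5% with day 7 lower, and the calls held in all 28 alternatives.

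mt-Nd4l was higher by 0.67 ± 0.21 as deposited (limma adjusted p = 0.0134) and by 1.11 ± 0.13 with its copy (limma adjusted p = 1.58e-06), from 3639, 3130, 2484 and 4529 TPM to 8821 to 9431 TPM with copies. As deposited, it lost the call without replicate 3 of shRNA-RUS on day 5 (limma adjusted p = 0.0520). mt-Atp8, at 0.66 ± 0.27 (limma adjusted p = 0.0426), lost its call in 9 of 16 leave-one-out fits, with limma adjusted p up to 0.145. mt-Co2 was lower by -1.06 ± 0.34 as deposited (limma adjusted p = 0.0140) and by -0.26 ± 0.076 with its copy (limma adjusted p = 0.00744). mt-Co1 was at -0.040 ± 0.082 as deposited (limma adjusted p = 0.698) and lower with its copy, at -0.25 ± 0.071 (limma adjusted p = 0.00691). mt-Co3 was likewise lower with its copy, at -0.26 ± 0.088 (limma adjusted p = 0.0187), and at -0.30 ± 0.32 as deposited (limma adjusted p = 0.440). These lower calls rested on the library factors. Without them, where the median of all genes moved from 0.13 to 0.41, mt-Co2 as deposited was at -0.74 (limma adjusted p = 0.0607), and mt-Co1 as deposited was called higher at 0.28 (limma adjusted p = 0.00550). With copies added and no library factors, mt-Co1, mt-Co2 and mt-Co3 were at 0.078, 0.065 and 0.068, and none of the 3 was called by limma (adjusted p from 0.288 to 0.441). On that scale 11 of 15 genes were called higher and 0 lower. Over all genes, without library factors and without added copies, 49.6% were called higher and 14.9% lower.

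The composition of the mRNA pool does not depend on the scale between libraries. The share of each gene in the summed TPM of the 13 mRNAs, with copies added, is given as a description, since shares sum to 100% and move against each other. mt-Atp8 varied most between replicates, from 3.94% to 7.47% in shRNA-CON on day 7, and mt-Nd1 varied little: it held 4.13% to 4.22% in shRNA-CON and 3.49% to 3.67% in shRNA-RUS on day 5, and 4.64% to 4.71% against 3.82% to 3.91% on day 7. mt-Nd1 was thus smaller in every knockdown library on both days, as were mt-Nd2 (2.66% to 2.71% against 2.03% to 2.18%, and 3.32% to 3.47% against 2.96% to 3.22%) and mt-Nd3 (1.97% to 2.32% against 1.64% to 1.86%, and 2.06% to 2.26% against 1.47% to 1.70%). All 3 are complex I subunits, and the other 4 of that complex behaved otherwise: the shares of mt-Nd4, mt-Nd5, mt-Nd4l and mt-Nd6 overlapped on day 5 and were larger in every knockdown library on day 7, as for mt-Nd4 with 5.99% to 6.38% against 6.87% to 7.17%. For mt-Nd3 and mt-Nd4l the added copies matter here. As deposited, their levels on day 7 changed by 0.25 (limma adjusted p = 0.396) and -0.013 (limma adjusted p = 0.966).

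mt-Co1 held 19.1% to 20.7% of the pool in shRNA-CON and 23.7% to 24.6% in shRNA-RUS on day 5, and both overlapped on day 7 at 17.2% to 19.8% and 19.1% to 20.5%. On day 5, mt-Atp8 held 5.19% to 7.48% in shRNA-CON and 2.86% to 4.33% in shRNA-RUS, and mt-Atp6 13.7% to 14.6% against 12.3% to 13.4%. Both overlapped on day 7. In all, the groups did not overlap for 6 of 13 shares on day 5 (1 larger, 5 smaller) and for 8 of 13 on day 7 (4 larger, 4 smaller, of which mt-Co3 held 10.6% to 11.4% against 9.79% to 10.6%). No share over all genes exists for this measure; for levels, the groups did not overlap for 14.1% (higher) and 18.7% (lower) of all genes on day 5 and for 22.3% and 24.7% on day 7, so these counts are read as a description. From day 5 to day 7, the shares of mt-Nd1, mt-Nd2, mt-Nd4l, mt-Nd4 and mt-Nd5 were larger and those of mt-Co2 and mt-Co3 smaller with no overlap in shRNA-CON and in shRNA-RUS alike, also a description. Both use the same libraries as the knockdown comparisons.

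**Figure D5:**
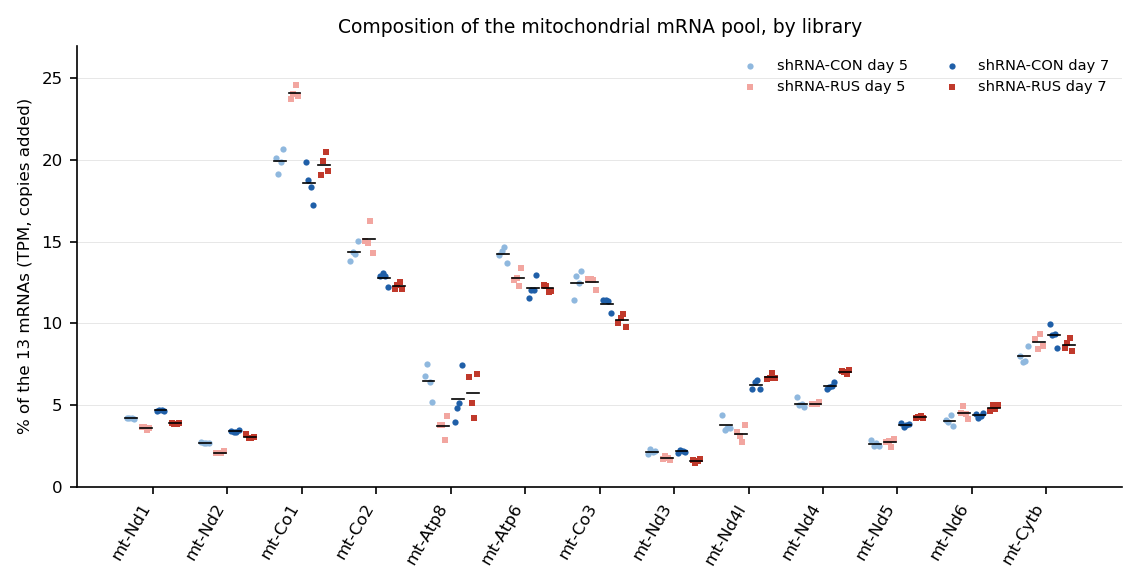
Share of each mRNA in the summed TPM of the 13 mitochondrial mRNAs, nuclear copies added, in genome order, 1 point per library and a bar at the group mean. The 2 shRNAs separate on both days for mt-Nd1, mt-Nd2 and mt-Nd3, and on day 7 only for mt-Co3 and for mt-Nd4l to mt-Nd6.

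Genes that are read from 1 mRNA could be compared within a library. mt-Nd4l and mt-Nd4 overlap (chrM:9877-10173 and chrM:10167-11544). The ratio of their TPM with copies was 0.696 to 0.809 in shRNA-CON and 0.533 to 0.730 in shRNA-RUS on day 5, and 0.941 to 1.06 against 0.924 to 1.01 on day 7, so it was higher on day 7 than on day 5 in every library of either shRNA. As deposited it ran from 0.388 to 0.738 and from 0.651 to 1.03 in the controls, and from 0.421 to 0.902 in the knockdown on day 7. mt-Atp8 over mt-Atp6 with copies was 0.379 to 0.518 in shRNA-CON and 0.233 to 0.324 in shRNA-RUS on day 5, and 0.342 to 0.577 against 0.352 to 0.575 on day 7. As deposited it overlapped on day 5 too, at 11.1 to 16.3 against 5.49 to 11.5.

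The rRNAs form the 2 subunits of the mitochondrial ribosome and carry tails of a few bases, so these libraries hold what poly(A) selection let through. Their sum was 0.057% to 0.101% of TPM. mt-Rnr1 stood at 254, 457, 287 and 273 TPM in shRNA-CON and at 340, 406, 350 and 367 TPM in shRNA-RUS on day 5. mt-Rnr2 stood at 321, 548, 318 and 302 TPM against 311, 379, 322 and 358 TPM. Replicate 2 of shRNA-CON was far above the other 3 for both.

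With all libraries and library factors, neither rRNA was called by limma in any of the 5 comparisons (0 of 2, with an unadjusted p under 0.05 for mt-Rnr1 from day 5 to day 7 in shRNA-RUS). Without library factors mt-Rnr2 was called higher at day 7 in shRNA-CON (0.41, limma adjusted p = 0.0326) and in shRNA-RUS (0.46, limma adjusted p = 0.0132). At day 5 mt-Rnr1 was at 0.40 ± 0.18 (limma adjusted p = 0.125) and mt-Rnr2 at 0.080 ± 0.19 (limma adjusted p = 0.781). Without replicate 2 of shRNA-CON both were called higher in the knockdown, at 0.60 (limma adjusted p = 0.00228) and 0.30 (limma adjusted p = 0.0225). Without it, the difference between days was also called for mt-Rnr1 (-0.64, limma adjusted p = 0.00450), as were a lower level of it at day 7 in shRNA-RUS (-0.35, limma adjusted p = 0.00651) and a higher level of both at day 7 in shRNA-CON (0.29 and 0.47, limma adjusted p = 0.0366 and 0.000755). In TPM before library factors, mt-Rnr1 in shRNA-RUS ran from 340 to 406 on day 5 and from 331 to 407 on day 7, and with all libraries its log2 change was -0.026 without library factors (limma adjusted p = 0.895) and 0.13 after quantile normalization (limma adjusted p = 0.446).

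RNAs that bear no poly(A) tail moved with that library. Rn7sk, a nuclear RNA that regulates transcription elongation, stood at 7.7, 30.6, 6.15 and 9.08 TPM in shRNA-CON and at 10.6, 29.8, 17.8 and 9.9 TPM in shRNA-RUS on day 5. Summed over 11 such RNAs the levels were 67.4, 196, 53.0 and 82.0 TPM, and 98.2, 216, 127 and 123 TPM. Replicate 2 was the highest of each group. Of the 10 lines tested on day 5, 0 were called (median log2 change 0.74). On day 7, 2 of 12 were lower (Terc and Rny1) and 0 higher. Over all genes, 14.8% were higher and 17.9% lower on day 5, and 23.4% and 25.8% on day 7. Terc averaged under 0.1 TPM over the 16 libraries. Their part in the rRNA values was not tested. The ratio of mt-Rnr2 to mt-Rnr1, within a library, was 1.10 to 1.27 in shRNA-CON and 0.915 to 0.976 in shRNA-RUS on day 5, and 1.19 to 1.44 against 1.25 to 1.47 on day 7. The groups did not overlap on day 5 and did on day 7.

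All 22 tRNA genes, of 59 to 75 bases, were listed at 0 TPM in each of the 16 libraries. No tRNA could be compared. The authors' base mean was above 0 for 12 of them on each day, up to 53.6 for mt-Tw on day 5 and 84.8 for mt-Tw on day 7, so reads did fall on some of these genes, and a TPM of 0 does not say that the RNA was absent. mt-Tw starts within the last bases of mt-Nd2 (chrM:4950-5016). mt-Ti, mt-Tt and mt-Tm, the others with a base mean above 20 on day 7, had 34.1, 24.9 and 24.1.

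The nuclear-encoded partners are given beside the mitochondrial mRNAs, with no test between the groups of genes. Of 76 lines tested for nuclear-encoded subunits of complexes I to V, 41 were higher and 4 lower in shRNA-RUS on day 5 (median log2 change 0.32, all genes -0.061), where 14.8% of all genes were higher and 17.9% lower. On day 7, 2 were higher and 58 lower (median -0.31, all genes -0.029), where 23.4% and 25.8% of all genes were. The 13 mitochondrial mRNAs had medians of -0.0075 on day 5 and 0.18 on day 7 as deposited, and of -0.059 and 0.11 with copies added. The difference between days was called lower for 69 of 76 and higher for 0, where 14.6% of all genes were called lower, and for the 13 it was lower for 0 and higher for 1. In every group, the library with the highest summed TPM of these subunits had the lowest summed mt- mRNAs as deposited. In shRNA-CON at day 7, replicate 4 had the lowest subunit sum (21382 TPM) and the highest mt- mRNA sum (8.63%). In shRNA-RUS at day 5, replicate 4 did so too (30235 TPM and 6.58%). The subunits were fitted on the main scale only, and the part of single libraries in these values was not tested.

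On day 5 the increases were led by Uqcr10 of complex III (log2 change 1.16), Ndufs7 (0.61) and Ndufa3 (0.58) of complex I, and the decreases by Cox5a of complex IV (-0.54), Ndufa8 (-0.47) and Ndufb3 (-0.29). On day 7 Ndufa8 (-0.94), Cox5a (-0.83) and Ndufb3 (-0.75) led the decreases and Uqcrc1 (0.20) and Uqcr10 (0.17) of complex III were the 2 higher. By complex, the counts of higher and lower on day 5 were 16 and 3 of 36 in complex I, 4 and 0 of 4 in complex II, 5 and 0 of 9 in complex III, 7 and 1 of 11 in complex IV and 9 and 0 of 16 in complex V. On day 7 they were 0 and 27, 0 and 2, 2 and 7, 0 and 9, and 0 and 13. Complex II, with no mitochondrial gene, had its calls in the direction of most others on each day, but for only 2 of 4 on day 7 (median -0.12). Sdhb was at 0.36 on day 5 and -0.24 on day 7, and Sdha and Sdhc were not called on day 7. Within complex I the named mRNAs of day 5 also included Ndufa13 (0.57) and Ndufv2 (-0.23), and of day 7 Ndufb6 (-0.71). In complexes II and III, Sdha (0.32), Sdhc (0.31), Uqcrc1 (0.41) and Uqcrh (0.38) were higher on day 5, and Sdhd (-0.25), Uqcr11 (-0.62), Uqcrq (-0.39) and Uqcrfs1 (-0.28) lower on day 7. In complexes IV and V, Cox6c (0.42), Cox6b1 (0.41), Cox7b (0.40), Atp5e (0.48), Atp5k (0.40) and Atp5b (0.40) were higher on day 5, and Cox7c (-0.51), Cox8a (-0.51), Atp5g1 (-0.42), Atp5l (-0.40) and Atp5c1 (-0.38) lower on day 7. From day 5 to day 7, 71 of 76 were lower in shRNA-CON (median -0.54) and 75 of 76 in shRNA-RUS (median -1.14), with 0 higher in either. Over all genes, 21.6% were lower in shRNA-CON (median 0.067) and 25.8% in shRNA-RUS (median 0.13).

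Among 18 genes for mitochondrial RNA polyadenylation, stability and decay, 2 were higher and 6 lower on day 5 (median -0.028), and 3 higher and 9 lower on day 7 (median -0.13). For this and the next lists, 32.7% of all genes were called on day 5 (14.8% higher, 17.9% lower) and 49.2% on day 7 (23.4% higher, 25.8% lower). Mtpap, the mitochondrial poly(A) polymerase, was lower on both days, at -0.59 ± 0.080 (limma adjusted p = 0.000564) and -0.41 ± 0.068 (limma adjusted p = 0.000813). Ptcd3, a protein of the small mitochondrial ribosomal subunit, was lower by -0.38 and -0.39, Fastkd2, needed for the large-subunit rRNA, by -0.52 on day 5, and Slirp, which holds mRNAs with Lrpprc, by -0.54 on day 7. Ptcd1 was higher on both days (0.29 and 0.49), as was Fastk (0.38 and 0.12), and Grsf1, of the RNA granules, on day 7 (0.28).

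Of 22 genes tested for RNA processing and modification, 5 were higher and 2 lower on day 5, and 1 higher and 8 lower on day 7 (medians -0.020 and -0.085), against the shares just given. Hsd17b10, a subunit of the enzyme that cuts the 5′ ends of tRNAs, was at 0.56 on day 5, and the rRNA modifiers Mrm2 (0.53) and Rpusd4 (0.43) were also higher. Mrm1, another rRNA methyltransferase, was lower on both days (-0.73 and -0.53), as was the RNA methyltransferase Nsun2 (-0.62 and -0.57), and Prorp, the cutting subunit of the tRNA enzyme, on day 7 (-0.45). Mto1, a tRNA modifier, was higher on day 7 (0.19).

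Of 18 genes for mtDNA transcription and maintenance, 3 were higher and 1 lower on day 5, and 3 higher and 8 lower on day 7 (medians -0.065 and -0.15). Polrmt, the mitochondrial RNA polymerase, was higher on day 7 at 0.43 ± 0.12 (limma adjusted p = 0.0147), and Tfam, which packages mtDNA and acts in its transcription, was lower at -0.41 ± 0.065 (limma adjusted p = 0.000507). The DNA polymerase Polg (0.42) and Mterf3 (0.32) were higher on day 7, and Top1mt (-0.85) and Rrm2b (-0.39) lower. On day 5, the helicase Twnk (0.36), Polg2 (0.31) and Mgme1 (0.29) were higher and Rrm2b (-0.71) lower.

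Of 8 regulators of mitochondrial biogenesis, 0 were higher and 1 lower on day 5 (Gabpb1, -0.29), and 5 were higher and 0 lower on day 7 (median 0.28), led by the coactivator Ppargc1a (0.67 ± 0.053, limma adjusted p = 6.27e-06), the nuclear receptor Esrra (0.55) and Pprc1 (0.51). Of 11 genes whose products mark mitochondrial mass, 5 were higher and 2 lower on day 5 (median 0.070), and 2 higher and 7 lower on day 7 (median -0.14). Citrate synthase, Cs, was higher on both days (0.41 and 0.57), as was Timm44 (0.33 on each), and Immt on day 5 (0.29). Vdac3 (-0.25 and -0.55) and the chaperone Hspd1 (-0.26 and -0.35) were lower on both days, and Timm23 on day 7 (-0.50).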

How the data were processed

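The authors aligned reads of poly(A)-enriched libraries with STAR to mm10 (GRCm38), quantified them with RSEM and deposited TPM per gene and library, with a base mean per gene (signal: the authors' mean of counts divided by size factors, from DESeq2) and their own fold changes and p-values, which were not used. Versions and strand setting are not given in the sources used here. Depth per library is unknown. Groups came from the labels. Each library was scaled by its median ratio to geometric means, over genes reaching 1 TPM in all libraries of a fit, and tested as log2(value + 0.1) with limma 3.58.1 in R 4.3.3 (trend, Benjamini-Hochberg over all genes averaging 0.1 TPM or more, two-sided, called under 0.05). Fold changes are on that scale. Days were compared over 55365 lines present in both tables. Nuclear copies were sought with blastn 2.17.0 (at least 95% identity over 100 bases) in GENCODE M21 transcripts, not the authors' release. Named genes are all mt- mRNAs and rRNAs, tRNAs from 1 TPM, and per list the 3 called genes of largest change in each direction; mt-Tw, mt-Ti, mt-Tt and mt-Tm were named after their values were seen. Members, lists and tests were chosen with earlier results of these data known. The fit was tested on simulated data. Alternatives covered pseudocount, filter, scaling, variance trend, replicate block, left-out libraries and added copies.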

Additional observations from a re-analysis of the deposited data

Results flagged for a closer look

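In a group of 4 libraries a value was taken as standing apart where its gap to the next, over the whole range, exceeded Dixon's 95% critical value, which chance passes in about 1 in 20 groups. Of 72 sets of values, 9 did so. Replicate 2 of shRNA-CON on day 5 was high for mt-Rnr1 (456.91 TPM, the others 254 to 287), for mt-Rnr2 (548.26 TPM, the others 302 to 321), for the summed rRNA share (0.100517%, the others 0.0575% to 0.0605%) and for mt-Atp6 (719.19 TPM, the others 506 to 521). Replicate 1 of shRNA-CON on day 7 was high for mt-Rnr1 (447.63 TPM, the others 330 to 350), and replicate 4 of that group for mt-Co1 (21646.1 TPM, the others 19411 to 19619). Replicate 4 of shRNA-RUS on day 7 was low for mt-Nd4l (4101.41 TPM, the others 7732 to 7867), while its copy Gm10222 was at 4959 TPM there. Replicate 4 of shRNA-CON on day 5 was low for mt-Nd4 (5398.24 TPM, the others 6455 to 6577), and replicate 3 of shRNA-RUS on day 5 for mt-Nd6 (4101.14 TPM, the others 4908 to 5012). The effect of the knockdown differed between days for mt-Atp8, with a log2 difference of 1.0832 (limma adjusted p = 0.0412).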

How the results depend on the processing

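The calls among the 15 genes depended most on the scale between libraries. On day 5, 2 were called, against 5 without library factors, 6 after quantile normalization, 4 scaled to the 75th percentile and 5 rescaled without mt- genes, all lower. Over all genes these scales called 26.7%, 14.8%, 21.5% and 27.5% lower, against 17.9%. On day 7, 4 were called, against 1 with no filter on low values and 0 scaled to the 75th percentile, where 19.9% of all genes were higher and 27.7% lower. Quantile normalization also gave 4, but 2 of them lower: mt-Cytb and mt-Nd1 (limma adjusted p = 0.0240), while mt-Co1 (set equal between libraries as the highest line) and mt-Nd6 lost their calls. Over all genes, quantile normalization called 24.6% higher and 24.5% lower on day 7. From day 5 to day 7, the same 3 scales (no library factors, quantile, rescaled) each gave 7 (6 higher, 1 lower) in place of 4 (2 higher, 2 lower) in shRNA-CON (over all genes 36.0%, 23.9% and 36.8% higher and 14.4%, 24.03% and 13.8% lower) and 10 (all higher) in place of 6 (5 higher, 1 lower) in shRNA-RUS. For the difference between days, 1 was called, against 2 at a mean of at least 1 TPM, 4 without library factors, 5 after quantile normalization, 5 rescaled without mt- genes, 2 with copies added, and 0 with no filter or with no variance trend. Over all genes, no library factors, quantile normalization and rescaling called 23.96%, 14.96% and 25.5% higher and 8.63%, 14.1% and 7.95% lower. With copies added and no library factors (chosen after seeing the data), 5 genes were lower on day 5, 5 higher and 1 lower on day 7, 6 higher in shRNA-CON and 11 higher in shRNA-RUS between days, and 6 higher for the difference. Over all genes, without library factors and without added copies, 26.7% were lower on day 5, and 23.5% higher and 25.7% lower on day 7. Between days 36.0% were higher in shRNA-CON and 49.6% in shRNA-RUS, and 23.96% for the difference. The other pseudocounts left the main counts of called genes within 1.5 times. Leaving out 1 library gave 2 to 4 calls on day 5, 1 to 4 on day 7, 3 to 5 in shRNA-CON and 4 to 7 in shRNA-RUS between days, and 0 to 3 for the difference. Group means of summed mRNA then ran from 6.41% to 6.75% and 5.30% to 5.92% on day 5 (shRNA-CON, shRNA-RUS) and from 7.12% to 7.69% and 8.01% to 8.38% on day 7, and of summed rRNA from 0.0585% to 0.0728%, 0.0683% to 0.0727%, 0.0804% to 0.0876% and 0.0803% to 0.0859%. After library factors the summed mRNA of shRNA-RUS was 6.43% on day 5 and 7.50% on day 7, and its summed rRNA on day 5 was 0.0812%.

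Of 1860 values of single genes under the alternatives, 121 had another sign than the main value, and 104 of these were called in neither. mt-Cytb became -0.27 on day 5 and -0.20 on day 7 after quantile normalization. On day 7, mt-Nd4l ran from -0.093 to 0.22 when 1 library was left out (0.22 without replicate 4 of shRNA-RUS) and was 0.22 with its copy, and mt-Nd3 became -0.33 with its copy. Between days in shRNA-RUS, mt-Co1 became 0.28 without library factors, 0.22 after quantile normalization and 0.32 rescaled without mt- genes. For the difference between days, mt-Nd4l became 0.50 with its copy. With copies and no library factors, mt-Atp6 became -0.38 on day 5, mt-Nd3 was -0.33 and mt-Nd4l 0.22 on day 7, mt-Nd3 became 0.040 in shRNA-CON, mt-Co2 0.065, mt-Atp6 0.29 and mt-Nd3 0.23 in shRNA-RUS between days, and mt-Nd4l 0.67 for the difference. The cause was not tested.

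With the replicate number as a block, 1 gene was called on day 5 in place of 2 (mt-Nd2, limma adjusted p = 0.0521, was lost), and the counts of the other 4 comparisons stayed at 4, 4, 6 and 1. Same-numbered libraries had correlations of their deviations from the group means of -0.30 to -0.056 on day 5 and -0.047 to 0.075 on day 7. For libraries with different numbers they ran from -0.19 to 0.30 on day 5 and from -0.17 to 0.22 on day 7. These values show no sign of pairing by number. They cannot exclude a shared preparation, since deviations within a group sum to 0. Without counts, depth sets no limit that can be stated for these values.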
